A study of Mus musculus with 8 samples.

Results

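A set of 10 Notch pathway genes was followed in sorted mouse intestinal epithelium with and without the transcription factor Sox4. They were 3 receptors (Notch1, Notch2 and Notch3), 4 ligands (Dll1, Dll4, Jag1 and Jag2), the receptor-modifying enzyme gene Lfng, the DNA-binding partner Rbpj and the target gene Hes1. The members were named as genes of the pathway, with earlier results of these data known, and all 10 were found among the 23366 gene symbols of the count tables. All 10 also passed the filter on low counts, which 20427 genes passed. All animals were male littermates aged 6 weeks, and both Sox4 alleles were floxed in each. In the Sox4cKO animals a villin-Cre transgene, active in the intestinal epithelium from mid-gestation, deleted those alleles, whereas the control animals carried the floxed alleles without Cre. CD326-positive (EpCAM) epithelial cells were sorted at 50000 cells per library into a CD44plus gate, which enriches for crypt cells, and a CD44minus gate, which enriches for villus cells. The groups were Sox4cKO CD44plus, control CD44plus, Sox4cKO CD44minus and control CD44minus, with 2 libraries each, and both gates of an animal were sequenced. The 4 animals, 2 of each genotype, are the replicates.

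Notch signalling passes between touching cells. A ligand of the Delta or Jagged family on one cell pulls on a receptor of its neighbour, the receptor is cut in the membrane, and its freed intracellular part enters the nucleus, where it joins Rbpj on DNA and switches on targets such as Hes1. In the crypt, Hes1 represses Atoh1, the factor that starts the secretory lineages, so cells with active Notch become absorptive cells. Cells that make Delta ligands become goblet, Paneth or enteroendocrine cells. Notch1 and Notch2 are the receptors known to carry this signal in mouse crypts, and Dll1 and Dll4 are its main ligands there.

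Rbpj, one of the members, binds DNA at a short core, TGGGAA, and its binding was not measured in these data. RefSeq promoters of GRCm38.p6, each 250 bases before to 50 bases after an annotated start, were on hand for 9 members, with Hes1 named only. The core was searched on both strands, where it reads TTCCCA on the other one. It occurred in promoters of 2 of these 9 members, Lfng and Rbpj, and in 25.6% of 32851 promoters of all genes. The members are counted per gene and the share over all genes per promoter, and a gene can have several annotated starts. The Lfng promoter held 2 matches, which 3.79% of all promoters did, with first bases 135 and 108 bases before the start. The second of them extends to GTGGGAA, found in 6.38% of promoters. Rbpj had 2 matches at one annotated start and 1 at another. Shown are the promoters of Lfng, which passed the test between gates in both genotypes, and of Notch1, which passed in control alone. The first Rbpj promoter is also shown, and each core is in capitals. They run 5′ to 3′ on the strand of the gene, from chr5:140607091-140607390 (plus) for Lfng, chr5:53590096-53590395 (plus) for Rbpj and chr2:26503773-26504072 (minus) for Notch1.
Lfng: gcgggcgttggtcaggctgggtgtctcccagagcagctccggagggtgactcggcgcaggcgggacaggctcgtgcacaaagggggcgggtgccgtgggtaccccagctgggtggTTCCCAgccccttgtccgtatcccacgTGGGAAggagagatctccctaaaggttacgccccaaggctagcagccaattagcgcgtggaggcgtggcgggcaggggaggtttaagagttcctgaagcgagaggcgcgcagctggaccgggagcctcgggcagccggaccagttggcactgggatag
Rbpj: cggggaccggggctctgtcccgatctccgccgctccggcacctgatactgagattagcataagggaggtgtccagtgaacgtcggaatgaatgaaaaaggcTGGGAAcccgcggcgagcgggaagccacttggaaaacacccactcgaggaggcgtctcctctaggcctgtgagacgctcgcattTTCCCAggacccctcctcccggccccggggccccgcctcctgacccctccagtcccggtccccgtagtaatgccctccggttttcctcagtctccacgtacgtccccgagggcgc
Notch1: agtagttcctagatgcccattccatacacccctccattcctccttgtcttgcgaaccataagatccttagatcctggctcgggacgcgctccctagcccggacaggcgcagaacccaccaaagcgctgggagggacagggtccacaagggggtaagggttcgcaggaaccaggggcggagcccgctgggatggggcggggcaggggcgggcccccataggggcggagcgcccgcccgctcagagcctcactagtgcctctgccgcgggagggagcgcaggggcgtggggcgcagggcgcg
No match means only that these letters are not in that window. The Notch1 and Rbpj windows lie inside the annotated spans of those genes, chr2:26457903-26516663 and chr5:53466152-53657362, and not at the outer starts of these spans.

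Depth and purity differed between libraries. Gene counts ranged from 6007554 to 13238050 in the CD44plus libraries and from 886194 to 6963345 in the CD44minus libraries, and 64.6 to 96.6% of uniquely placed reads fell on no counted gene. Levels are given as CPM, the share of a library's gene counts on a common scale, with TMM (trimmed mean of M values) factors applied and replicate 1 before replicate 2. Crypt marker genes summed to 6493 to 8619 CPM in CD44plus and to 239 to 394 CPM in CD44minus. Enterocyte marker genes summed to 605 to 927 CPM in CD44plus and 6497 to 31891 CPM in CD44minus, so each gate was richer in these markers of its label. The crypt genes were Cd44, Lgr5, Olfm4, Mki67 and Top2a. They include the gene of the antigen used for sorting, and Olfm4, given below, held a large part of their CD44plus sum. The crypt sum is therefore not independent of the gate. Paneth cell markers, of a type that sits at the crypt base, ran the other way, at 2193 to 3956 CPM in CD44plus and 4163 to 22827 CPM in CD44minus. Epithelial marker genes were read in every library. Within CD44plus, Sox4 had 17.8 and 25.7 CPM in Sox4cKO, against 128 and 120.2 CPM in control. In CD44minus it had 4 and 1 reads in Sox4cKO and 10 and 21 reads in control. Sox4cKO CD44minus replicate 2 stood apart from the other CD44minus libraries, with a TMM factor of 0.527 against 1.09 to 1.72. Sox4cKO CD44plus replicate 2 carried more RNA of blood-derived cells than the other CD44plus libraries, at 16790 CPM for mast cell markers against 1647 to 3389 CPM and at 4061 CPM for T cell markers against 1544 to 2305 CPM. Blood cell markers also differed between gates. Mast cell markers summed to 1647 to 16790 CPM in CD44plus and 7.90 to 38.1 CPM in CD44minus, T cell markers to 1544 to 4061 CPM in CD44plus and 127 to 581 CPM in CD44minus, and B, plasma and myeloid cell markers to 175 to 723 CPM in CD44plus and 41.4 to 61.3 CPM in CD44minus. Their part in the gate differences of the members, Notch1 and Lfng included, was not tested.

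Per kilobase of exon, Notch1 was the most abundant receptor in crypt-enriched cells. It was read at 224 and 275 CPM in Sox4cKO CD44plus and at 27.2 and 46.6 CPM in Sox4cKO CD44minus. In control animals it was read at 311 and 297 CPM in CD44plus and at 41.1 and 31.4 CPM in CD44minus. The gates did not overlap in either genotype, and every CD44plus library lay several times above every CD44minus library. In control, Notch1 was 8.39-fold higher in crypt-enriched than in villus-enriched cells, a log2 fold change of 3.07 (SE 0.77), and passed the threshold of 0.05 with an adjusted p of 0.0444 in edgeR's quasi-likelihood test. In Sox4cKO the log2 fold change was 2.75 (SE 0.76), with an adjusted p of 0.0618 by the same edgeR test. The gene lies at chr2:26457903-26516663 on the minus strand of GRCm38.

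Notch2, the second receptor of the crypt, had 138 and 252 CPM in Sox4cKO CD44plus and 35.2 and 41.7 CPM in Sox4cKO CD44minus. Control libraries had 168 and 161 CPM in CD44plus and 54.6 and 23.6 CPM in CD44minus. The gates were again apart in both genotypes. The log2 fold changes of CD44plus over CD44minus were 2.34 (SE 0.72) in Sox4cKO and 2.08 (SE 0.72) in control, with edgeR adjusted p of 0.0973 and 0.122. Its value of 252 CPM, the highest of the 8 libraries, came from Sox4cKO CD44plus replicate 2, the library with the most mast and T cell RNA. Whether those cells contribute to it was not tested.

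Notch3, a receptor best known from smooth muscle and pericytes, was scarce. It had 4.77 and 2.65 CPM in Sox4cKO CD44plus and 24.3 and 3.54 CPM in Sox4cKO CD44minus. Control libraries had 6.17 and 3.47 CPM in CD44plus and 16.8 and 11 CPM in CD44minus. Notch3 was the one member whose level lay lower in both CD44plus libraries than in both CD44minus libraries of control animals, and the Sox4cKO gates overlapped. The log2 fold changes were -1.88 (SE 0.94) in Sox4cKO and -1.51 (SE 0.93) in control, with edgeR adjusted p of 0.305 and 0.300.

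Its low reads call for a background. Olfactory and vomeronasal receptor genes, most of which have no known role in gut epithelium, took reads in every library, and their reads per kilobase of exon predict how many reads an unexpressed gene of a given length would collect. Predicted this way, background made up 12.6 and 0.566% of gene counts in Sox4cKO CD44minus and 11.1 and 4.14% in control CD44minus, and 0.209 to 1.10% in the CD44plus libraries. Notch3 had 49 and 13 reads in Sox4cKO CD44minus, where 16.9 and 4.51 were predicted, and 25 and 28 reads in control CD44minus, where 11.2 and 11 were predicted. Background thus equalled 34.5 to 45% of its reads in CD44minus. The 8 stroma and pericyte marker genes summed to 136 and 19.1 CPM in Sox4cKO CD44minus, to 130 and 79.4 CPM in control CD44minus and to 27.4 to 36.6 CPM in CD44plus, and their part in the Notch3 level was not tested.

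**Figure D1:**
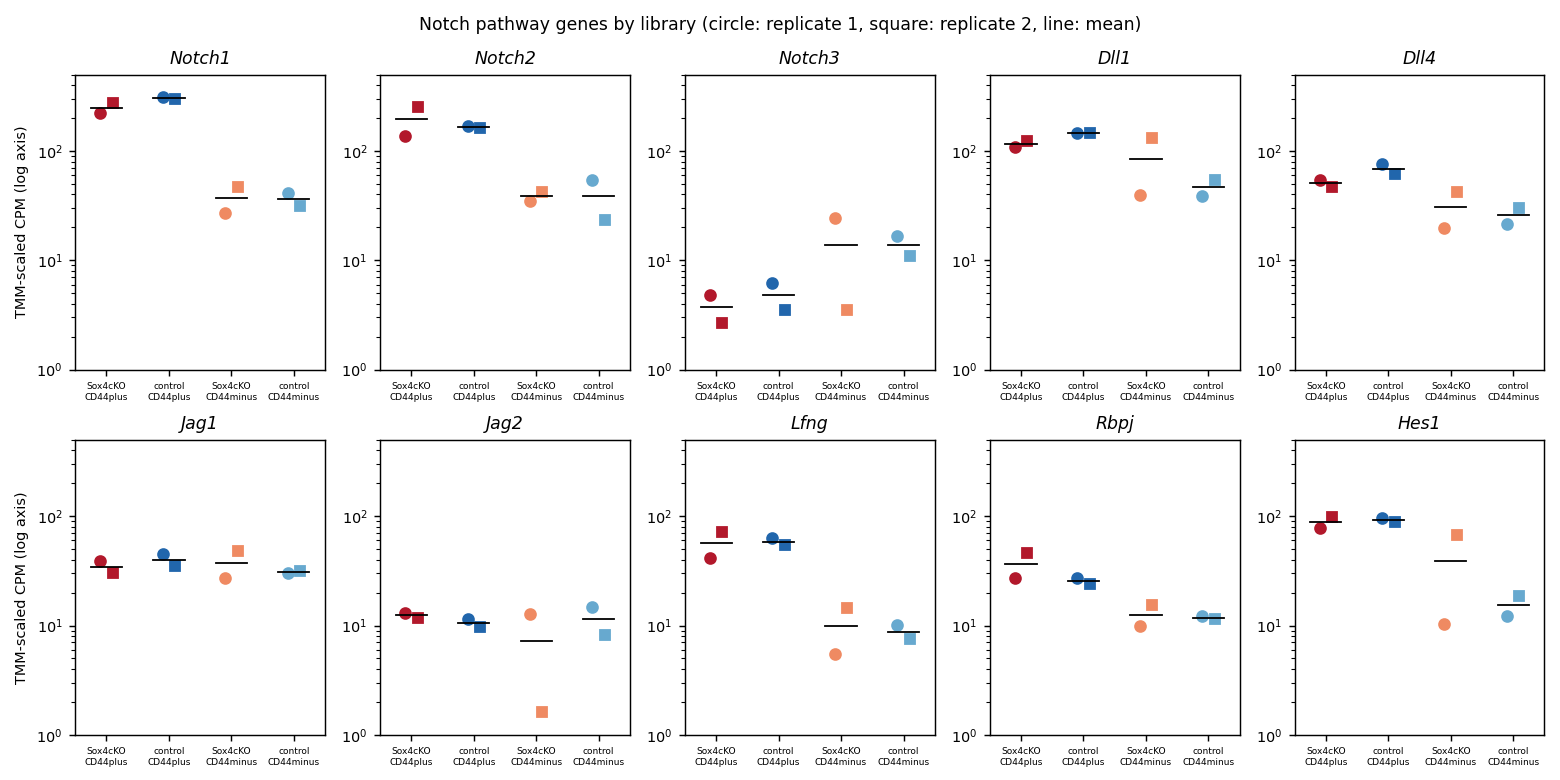
TMM-scaled CPM (log axis) of each gene in each of the 8 libraries, with circles for replicate 1, squares for replicate 2 and a line at the group mean. Notch1, Notch2 and Lfng lie higher in both CD44plus groups than in the CD44minus groups, while Jag1 and Jag2 differ less between gates, and the replicates of Sox4cKO CD44minus are far apart for Dll1, Hes1, Notch3 and Jag2.

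The Delta ligands were read in both gates. Dll1 had 109 and 122 CPM in Sox4cKO CD44plus and 39.1 and 131 CPM in Sox4cKO CD44minus. In control it had 145 and 147 CPM in CD44plus and 38.4 and 54.3 CPM in CD44minus. The gates were apart in control and overlapped in Sox4cKO, where CD44minus replicate 2 was above both CD44plus libraries. The log2 fold changes were 0.43 (SE 0.69) in Sox4cKO and 1.65 (SE 0.72) in control, with edgeR adjusted p of 0.722 and 0.188. On plain CPM, without TMM factors, Dll1 in Sox4cKO had 97.8 and 97.4 CPM in CD44plus and 67.2 and 69.1 CPM in CD44minus, and the gates were apart there.

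Dll4 had 53.7 and 47.1 CPM in Sox4cKO CD44plus and 19.8 and 42 CPM in Sox4cKO CD44minus. In control it had 75.4 and 61.7 CPM in CD44plus and 21.6 and 30.3 CPM in CD44minus. Both genotypes had the gates apart, with log2 fold changes of 0.70 (SE 0.57) in Sox4cKO and 1.40 (SE 0.58) in control and edgeR adjusted p of 0.490 and 0.175. Dll4 is also an endothelial ligand. All 8 endothelial marker genes summed to 54.5 to 185 CPM in CD44plus and 23.4 to 145 CPM in CD44minus. Of these, Cdh5 and Kdr had 1.99 to 6.34 CPM and 1.23 to 4.11 CPM in CD44plus. Other genes of the list thus held most of the CD44plus sum. The part of endothelial RNA in the Dll4 level was not tested. The opposite-strand gene Gm14207 overlaps 214 bases of Dll4 and had 12 to 57 reads per library. Whether counting used strand is not given in the sources used here, and the effect of this overlap on the Dll4 counts was not tested.

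Neither Jagged ligand passed the test between gates. The Jag1 gates were apart in control alone, and only with TMM factors, since they overlapped there on plain CPM. Jag1 had 39 and 30.1 CPM in Sox4cKO CD44plus and 27.2 and 48.2 CPM in Sox4cKO CD44minus. Control libraries gave 44.9 and 34.7 CPM for CD44plus and 30.3 and 31.4 CPM for CD44minus. Its log2 fold changes were -0.13 (95% interval -1.26 to 1.00) in Sox4cKO and 0.37 (-0.77 to 1.51) in control, with edgeR adjusted p of 0.895 and 0.633. Jag2, the scarcest ligand per kilobase in crypt-enriched cells, had 13 and 11.7 CPM in Sox4cKO CD44plus and 12.9 and 1.63 CPM in Sox4cKO CD44minus. Control libraries gave 11.4 and 9.68 CPM for CD44plus and 14.8 and 8.26 CPM for CD44minus. Its log2 fold changes were 0.81 (-1.01 to 2.64) in Sox4cKO and -0.11 (-1.91 to 1.69) in control, with edgeR adjusted p of 0.591 and 0.930. In Sox4cKO CD44minus replicate 2 the exact Poisson 95% interval of its 6 reads included the 2.87 predicted as background.

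Lfng, the gene of a fringe enzyme that adds a sugar to Notch receptors and so sets which ligands they answer, was higher in crypt-enriched cells in both genotypes. It had 41.5 and 71.4 CPM in Sox4cKO CD44plus and 5.45 and 14.4 CPM in Sox4cKO CD44minus. In control it had 62.8 and 54.2 CPM in CD44plus and 10.1 and 7.47 CPM in CD44minus. The gates did not overlap in either genotype, and the highest value, 71.4 CPM, came from the library with the most mast and T cell RNA. Lfng was 5.54-fold higher in CD44plus in Sox4cKO, a log2 fold change of 2.47 (SE 0.61) with an edgeR adjusted p of 0.0385. It was 6.72-fold higher in control, a log2 fold change of 2.75 (SE 0.63) with an edgeR adjusted p of 0.0303. Its CD44minus values rest on 11 and 53 reads in Sox4cKO and on 15 and 19 reads in control, of which background would supply 44.2 and 2.45% in Sox4cKO and 21.5 and 16.7% in control.

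Rbpj, whose protein ties the pathway to DNA, had 27 and 46.3 CPM in Sox4cKO CD44plus and 9.9 and 15.3 CPM in Sox4cKO CD44minus. In control it had 27.1 and 23.9 CPM in CD44plus and 12.1 and 11.4 CPM in CD44minus. The gates were apart in both genotypes, with log2 fold changes of 1.53 (SE 0.56) in Sox4cKO and 1.12 (SE 0.57) in control and edgeR adjusted p of 0.167 and 0.234. In Sox4cKO CD44minus replicate 1 its 20 reads had an exact Poisson 95% interval of 12.2 to 30.9 that included the 12.5 predicted as background. Like Notch2, it was highest in Sox4cKO CD44plus replicate 2.

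Hes1, the repressor that Notch switches on in absorptive progenitors, had 77.7 and 98.8 CPM in Sox4cKO CD44plus and 10.4 and 67 CPM in Sox4cKO CD44minus. In control it had 97 and 87.7 CPM in CD44plus and 12.1 and 18.5 CPM in CD44minus. The gates were apart in both genotypes, although Sox4cKO CD44minus replicate 2 came near the CD44plus libraries. The log2 fold changes were 1.17 (SE 0.71) in Sox4cKO and 2.58 (SE 0.76) in control, with edgeR adjusted p of 0.376 and 0.0775. The Sox4cKO value was 0.40 without Sox4cKO CD44minus replicate 1 and 3.09 without Sox4cKO CD44minus replicate 2 (edgeR adjusted p 0.00143), and it was 1.43 and called with library totals in place of TMM (0.0248). On plain CPM the same Sox4cKO CD44minus libraries had 17.9 and 35.3 CPM, against 20.3 and 20.2 CPM in control CD44minus. The gene lies at chr16:30064384-30067796 on the plus strand of GRCm38.

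Between gates, then, 1 of the 10 members passed the edgeR test in Sox4cKO (Lfng) and 2 of 10 did in control (Notch1 and Lfng), all of them higher in CD44plus. Over all 20427 genes, 2.59% passed in Sox4cKO (1.66% higher and 0.93% lower) and 2.46% in control (2.01% higher and 0.445% lower). The members' median log2 fold change was 0.99 in Sox4cKO and 1.52 in control, beside -0.48 and -0.19 over all genes. By values that did not overlap between gates, 6 members were higher and 0 lower in Sox4cKO, and 8 were higher and 1 lower in control. Among all genes, 21.1% were higher and 16.2% lower in this sense in Sox4cKO, and 38.7% higher and 41.0% lower in control. On plain CPM, 7 members were higher and 0 lower in Sox4cKO, against 23.9% and 15.2% of all genes, and 7 were higher and 1 lower in control, against 27.3% and 49.6%. In bulk libraries such as these, fewer cells of a type and less RNA per cell cannot be told apart.

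These calls stand close to the threshold. The Notch1 call in control was lost on leaving out either control CD44minus library, either control CD44plus library or Sox4cKO CD44plus replicate 2, with edgeR adjusted p up to 0.397 and log2 fold changes of 2.88 to 3.27 over all 8 omissions. The Lfng call in control was lost without any one of the 4 control libraries (edgeR adjusted p up to 0.380), and the Lfng call in Sox4cKO without control CD44minus replicate 2, either control CD44plus library or Sox4cKO CD44plus replicate 2 (up to 0.606). In a fit of the 4 Sox4cKO libraries alone, no gene was called and Lfng had an edgeR adjusted p of 0.0846. Leaving out either Sox4cKO CD44minus library raised the number of calls in both genotypes, among the members and among all genes. The rise was thus not particular to the members, and each of these fits leaves 1 library in Sox4cKO CD44minus. Between gates in Sox4cKO, the members' median log2 fold change was 0.83 without replicate 1 of that group, beside 0.13 over all genes. Without replicate 2 of that group it was 1.73, beside -0.19 over all genes. With the animal as a block, edgeR called Lfng and Notch1 in Sox4cKO (Notch1 adjusted p 0.0365) and Lfng, Notch1 and Hes1 in control (Hes1 adjusted p 0.00964). All-gene calls then numbered 1712 in Sox4cKO and 3659 in control, against 529 and 502 without the block.

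**Figure D2:**
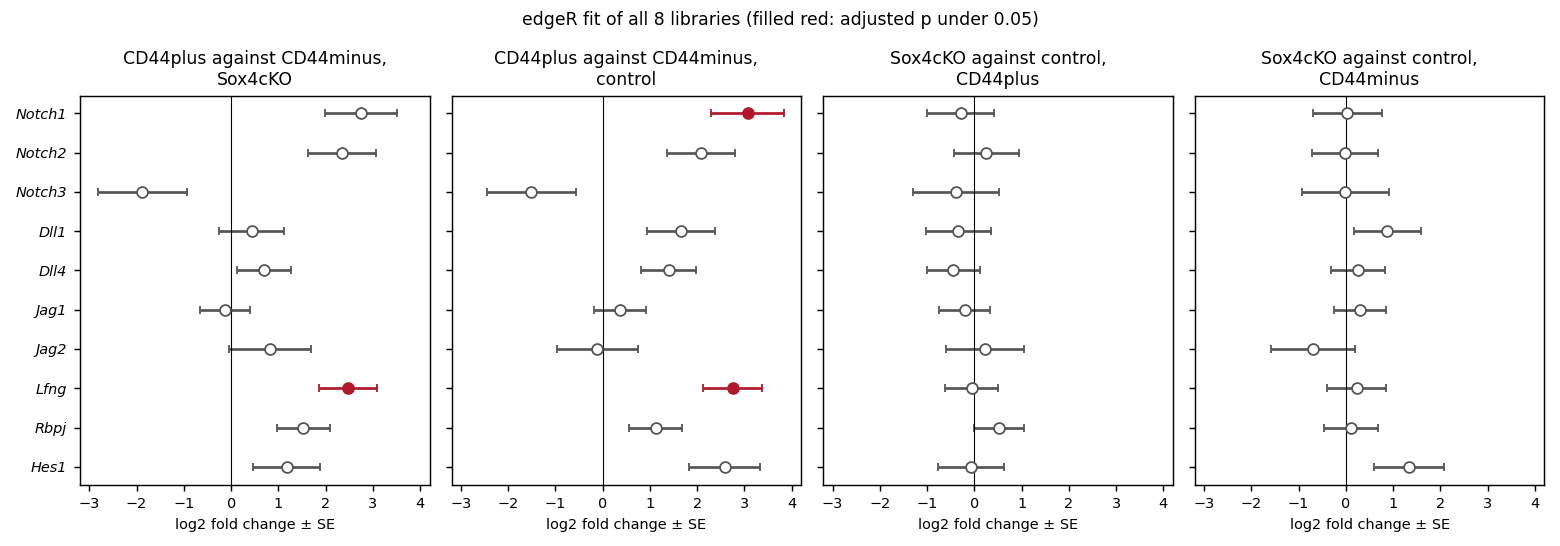
Log2 fold change (x axis) with its standard error for each gene, from the edgeR fit of all 8 libraries, for CD44plus against CD44minus in Sox4cKO and in control and for Sox4cKO against control in each gate. Filled red points pass an adjusted p of 0.05, which Lfng does in both gate comparisons and Notch1 in control, and the genotype comparisons have none.

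No member passed the test between genotypes in crypt-enriched cells. In CD44plus, 0 of 10 members and 0% of all genes were called, with 128 genes and 0 members at an unadjusted p under 0.05 in edgeR and 0 genes called by DESeq2. Sox4 itself, with a log2 fold change of -2.51 (SE 0.61), had an edgeR adjusted p of 1 in this fit. The members' median log2 fold change of Sox4cKO over control was -0.14, beside -0.0005 over all genes. Notch1 lay lower in Sox4cKO, at 224 and 275 CPM against 311 and 297 CPM in control (log2 fold change -0.29, 95% interval -1.77 to 1.20). Dll1 was likewise lower, at 109 and 122 CPM in Sox4cKO against 145 and 147 CPM in control (-0.34, -1.79 to 1.12), and so was Dll4, at 53.7 and 47.1 CPM in Sox4cKO against 75.4 and 61.7 CPM in control (-0.45, -1.62 to 0.73). Jag2 was higher, at 13 and 11.7 CPM in Sox4cKO against 11.4 and 9.68 CPM in control (0.23, -1.52 to 1.98). For the other 6 members the genotypes overlapped. Groups lying apart in this way, 3 of 10 members lower and 1 of 10 higher, compare with 16.4% of all genes lower and 14.2% higher. On plain CPM, 4 members were lower, Hes1 joining them, and 0 higher, against 22.9% and 9.15% of all genes.

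A fit of the 4 CD44plus libraries alone, whose biological coefficient of variation was 0.335 rather than 0.616, gave narrower intervals. They ran from -0.67 to 0.10 for Notch1, -0.72 to 0.05 for Dll1, -0.89 to 0.0048 for Dll4 and -0.49 to 0.36 for Hes1 on the log2 scale. The interval was -0.11 to 1.16 for Rbpj and -0.34 to 0.84 for Notch2. That fit called 17 of 17052 genes, Sox4 among them (adjusted p 0.0187), and no member, the lowest edgeR adjusted p among members being 0.967. A p that misses the threshold does not show that the genotypes are alike.

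In villus-enriched cells the genotypes overlapped for all 10 members after TMM scaling, where 6.52% of all genes were higher and 5.94% lower without overlap. On plain CPM 1 member, Dll1, was higher without overlap and 0 were lower, against 4.76% and 6.57% of all genes. The test passed 0 of 10 members and 0% of all genes, with 116 genes and 0 members at an unadjusted p under 0.05 in edgeR and 0 genes called by DESeq2. The median log2 fold change of Sox4cKO over control was 0.17 among members and 0.19 over all genes. Hes1 had the highest value, 1.34 (SE 0.74), and Dll1 followed at 0.88 (SE 0.71). Both rest on Sox4cKO CD44minus replicate 2. Without it the log2 fold changes were -0.59 for Hes1 and -0.26 for Dll1, and no member was called. Without Sox4cKO CD44minus replicate 1 instead, the log2 fold changes were 2.08 for Hes1, 1.47 for Dll1 and -2.80 for Jag2. These members passed the edgeR test in that fit, as did a large part of all genes. The groups then compare 1 Sox4cKO library, assumed to vary like the others, with 2 control libraries.

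The values of that library depend on scaling. TMM-scaled, its Hes1 and Dll1 levels of 67 and 131 CPM exceeded the other CD44minus libraries, which had 10.4 to 18.5 CPM and 38.4 to 54.3 CPM. On plain CPM its Dll1 level of 69.1 CPM stood beside 59.3 to 67.2 CPM, while its Hes1 level of 35.3 CPM stood above 17.9 to 20.3 CPM. Enterocyte markers moved the same way, at 31891 CPM after TMM scaling against 6497 to 14975 CPM in the other CD44minus libraries, and at 16810 CPM against 11164 to 16370 CPM on plain CPM. Refitted with library totals in place of TMM, the log2 fold changes of Sox4cKO over control in CD44minus were 0.44 for Hes1 and 0.15 for Dll1, against 1.34 and 0.88 with TMM, and neither passed.

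**Figure D3:**
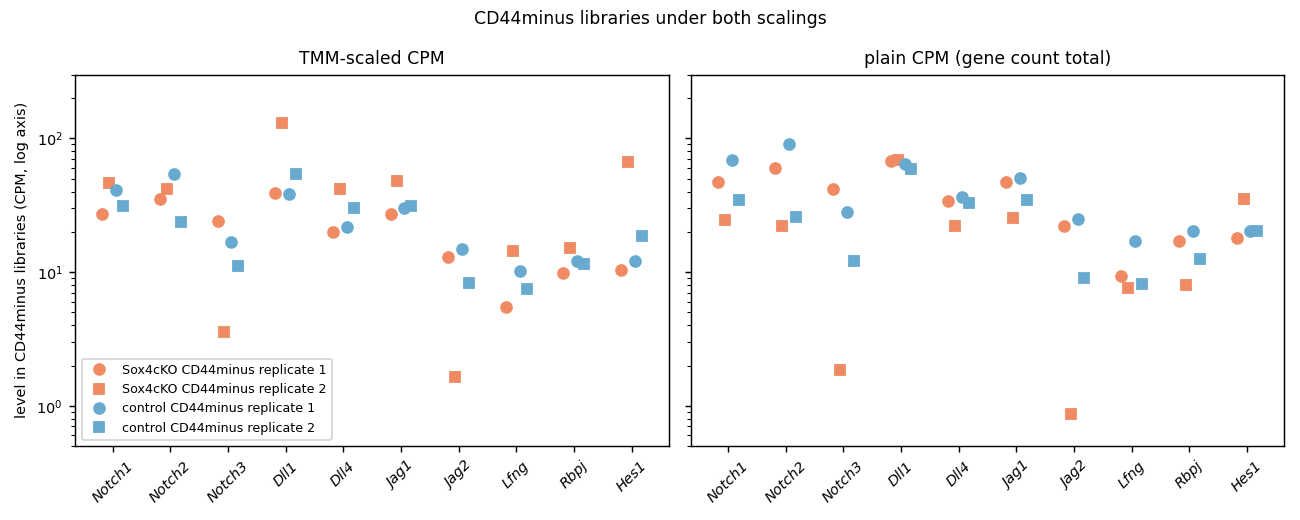
Levels of the 10 genes in the 4 CD44minus libraries (CPM, log axis), scaled by TMM on the left and by gene count totals on the right, with circles for replicate 1 and squares for replicate 2. Dll1 of Sox4cKO replicate 2 lies at 131 CPM on the left, above the other libraries, and at 69.1 CPM on the right, beside them, while its Hes1 is the highest in both.

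Whether the genotype effect differed between gates was tested by an interaction term. No member passed, nor did any of the 20427 genes (0%), with 50 genes and 0 members at an unadjusted p under 0.05 in edgeR and 0 genes called by DESeq2. The interaction of Hes1 was -1.41 (SE 1.01) on the log2 scale. It passed with an adjusted p of 0.0457 at -2.15 only without Sox4cKO CD44minus replicate 1, and became 0.53 without replicate 2 of that group.

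Proportions within a library need no scaling between libraries, but background enters them. In CD44minus it equalled 3.12 to 36.4% of Notch1 reads and 3.86 to 31.2% of Notch2 reads. In CD44plus it equalled at most 1.32% of the reads of either gene. Its part in the gate differences below was not tested. Per kilobase of exon, Notch1 took 54.4 to 66.6% of receptor reads in the 4 CD44plus libraries and 31 to 52.7% in the 4 CD44minus libraries, while Notch3 took 0.621 to 1.59% and 4.74 to 32.7%. The ratio of Notch1 to Notch2 per kilobase was 1.79 (exact binomial 95% interval 1.65 to 1.94) and 1.21 (1.15 to 1.27) in Sox4cKO CD44plus, against 2.05 and 2.05 in control CD44plus, with intervals that reached down to 1.94 and 1.89. Both Sox4cKO libraries lay lower than the control libraries. The Sox4cKO libraries also differed from each other beyond counting error, and replicate 2, the lower one, was the library with the most mast and T cell RNA. In CD44minus the ratio was 0.857 (0.592 to 1.24) and 1.24 (0.989 to 1.55) in Sox4cKO and 0.833 (0.588 to 1.18) and 1.48 (1.04 to 2.10) in control, where genotypes overlapped. These intervals cover counting error only.

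Delta ligands made up most ligand reads in every library. Per kilobase they took 82.4 and 85.9% in Sox4cKO CD44plus and 68.7 and 84.3% in Sox4cKO CD44minus, against 85.5 and 87.7% in control CD44plus and 66.5 and 76.3% in control CD44minus. Dll1 exceeded Dll4 by 1.86 to 3.27 times per kilobase in all 8 libraries. The ratio of Hes1 to Dll1 was 1.74 (1.56 to 1.95) and 1.97 (1.82 to 2.14) in Sox4cKO CD44plus, against 1.64 (1.51 to 1.77) and 1.45 (1.30 to 1.63) in control CD44plus. In CD44minus it was 0.648 (0.381 to 1.06) and 1.25 (1.07 to 1.46) in Sox4cKO, against 0.770 (0.427 to 1.33) and 0.831 (0.584 to 1.16) in control. The ratio was thus above all CD44minus libraries in each CD44plus library, and in CD44plus the Sox4cKO libraries were both higher than the control libraries. The genotypes overlapped in CD44plus for the other 3 ratios computed, at 0.764 and 1.07 in Sox4cKO against 0.832 and 0.751 in control for Lfng over Notch1, 0.690 and 0.981 in Sox4cKO against 0.699 and 0.717 in control for receptors over ligands, and 2.12 and 2.71 in Sox4cKO against 2.01 and 2.49 in control for Dll1 over Dll4. With 2 libraries in each genotype an exact permutation test allows no p below 0.333, and none was made.

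**Figure D4:**
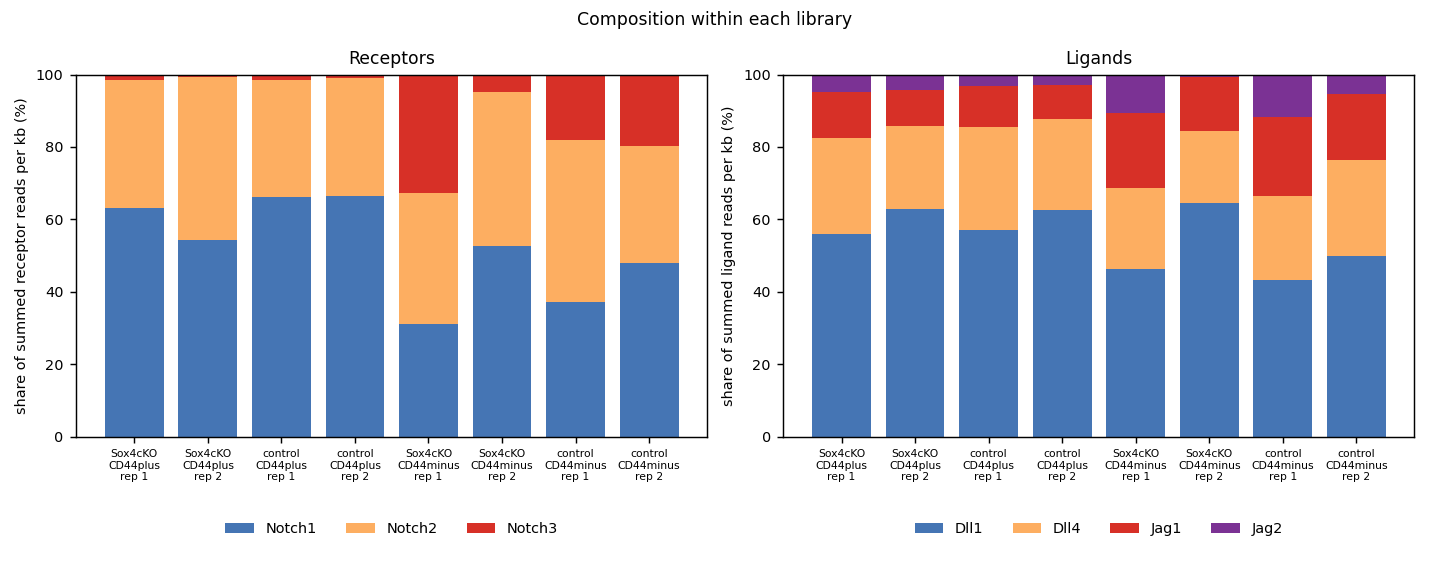
Share (%) of receptor reads per kilobase held by Notch1, Notch2 and Notch3 (left) and of ligand reads held by Dll1, Dll4, Jag1 and Jag2 (right), one stacked bar per library. Notch1 holds 54.4 to 66.6% of receptor reads in the CD44plus libraries, and Notch3 shows as a visible share only in CD44minus, where background is high in replicate 1 of both genotypes.

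Ordered by TMM-scaled CPM per kilobase, the levels in control CD44plus ran Hes1 (62.9), Dll1 (40.7), Notch1 (32), Lfng (25.4), Dll4 (18.3), Notch2 (15.6), Jag1 (7.10), Rbpj (4.29), Jag2 (2.07) and Notch3 (0.60), and no neighbours overlapped over the 2 libraries. In Sox4cKO CD44plus Hes1 (60.1) and Dll1 (32.2) again led and Notch3 (0.46) was last, but Notch1, Lfng, Notch2 and Dll4 overlapped in a chain, as did Rbpj and Jag1. In CD44minus the order was less firm. Control CD44minus began with Dll1 (12.9) and Hes1 (10.4), which overlapped, followed by Dll4 (6.92) and Jag1 (5.50), each apart from its neighbours, and the 6 others overlapped in a chain down to Notch3 (1.74). In Sox4cKO CD44minus all neighbours overlapped except Notch2 (3.66) and Rbpj (2.12).

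**Figure D5:**
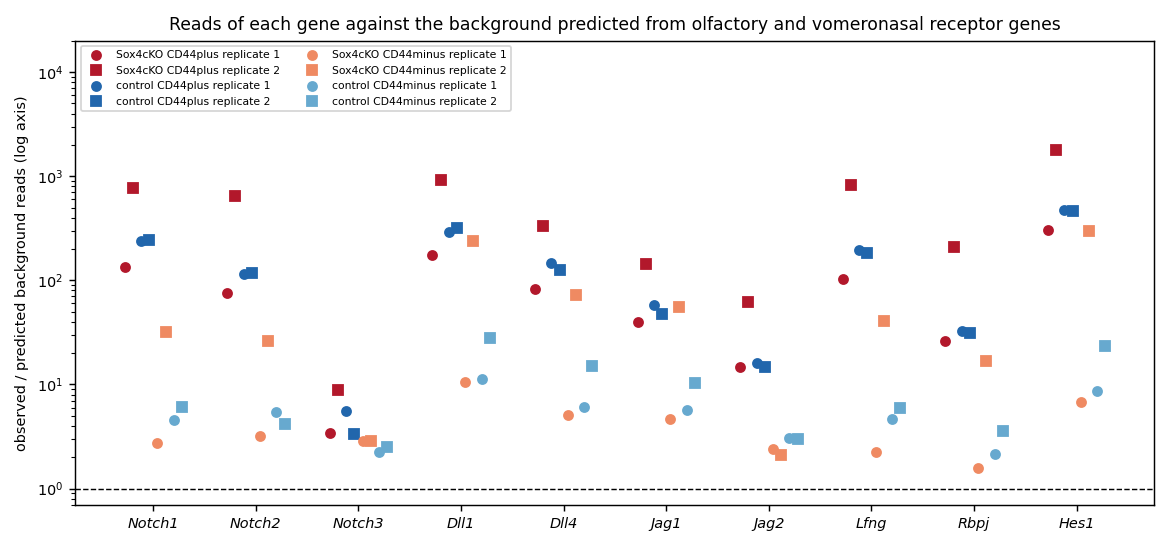
Reads of each gene divided by the reads predicted from olfactory and vomeronasal receptor genes (log axis), one point per library, with circles for replicate 1 and squares for replicate 2 and a dashed line at a ratio of 1. The highest point is Hes1 in Sox4cKO CD44plus replicate 2 at 1798, Notch3 stays between 2.22 and 8.84, and the lowest point is Rbpj in Sox4cKO CD44minus replicate 1 at 1.59.

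Of 44 other pathway genes, 43 were tested. Between gates 1 was higher in CD44plus in control and 1 lower in Sox4cKO, where 2.01% and 0.93% of all genes were. Nrarp, a Notch target that limits the signal, was the 1 gene higher in CD44plus in control, at 29 and 37.1 CPM against 6.74 and 5.50 CPM in CD44minus (log2 fold change 2.44, SE 0.61, edgeR adjusted p 0.0437). In Sox4cKO it had 44.3 and 30.5 CPM in CD44plus and 9.41 and 18.8 CPM in CD44minus (1.39, SE 0.56, edgeR adjusted p 0.214). Hes2, a relative of Hes1, was the 1 gene lower in CD44plus in Sox4cKO, at 3.47 and 1.42 CPM against 13.4 and 41.1 CPM in CD44minus (-3.49, SE 0.81, edgeR adjusted p 0.0290). In control it had 3.48 and 4.57 CPM in CD44plus and 14.1 and 19.3 CPM in CD44minus (-2.06, SE 0.77, edgeR adjusted p 0.145, and 0.0291 with the animal as a block). Hes5, a Notch target of the nervous system, had 0 to 4 reads per library and was not tested. The Nrarp call was also lost with library totals in place of TMM (edgeR adjusted p 0.0943) and with DESeq2's size factors (0.0650). Both calls depend on single libraries, Nrarp keeping its call, of the 8 omissions, only without Sox4cKO CD44minus replicate 1 or replicate 2, with edgeR adjusted p up to 0.432, and Hes2 losing it on leaving out control CD44minus replicate 2, control CD44plus replicate 1, Sox4cKO CD44plus replicate 1 or Sox4cKO CD44plus replicate 2, with edgeR adjusted p up to 0.527. In the fit of the 4 Sox4cKO libraries alone the adjusted p of Hes2 was 0.154. Counts stayed at 0 for both genotype comparisons and for the interaction. The wider list's median log2 fold change between gates was 0.12 in Sox4cKO and 0.42 in control, beside -0.48 and -0.19 over all genes.

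By function, none of the 10 processing genes, which cut the receptor (Adam10, the presenilins and their partners), passed in any comparison, and neither did the 4 glycosylation, 4 ligand endocytosis, 7 nuclear and 8 regulator genes. Their medians between gates in control ran from -0.53 for ligand endocytosis genes to 1.01 for glycosylation genes. The 4 other receptor and ligand genes, Notch4 among them, had a median of -1.82 and none passed. Among crypt genes that Notch is known to set, Olfm4, a stem cell gene that Notch sustains, was higher in CD44plus in both genotypes. It had 3767 and 3552 CPM in Sox4cKO CD44plus and 29.7 and 61.8 CPM in Sox4cKO CD44minus. Control libraries gave 4340 and 4882 CPM for CD44plus and 14.8 and 33.8 CPM for CD44minus. The log2 fold changes were 6.32 (SE 1.56, edgeR adjusted p 0.0383) in Sox4cKO and 7.56 (SE 1.65, edgeR adjusted p 0.0254) in control. Olfm4 lost its call in control without any one of the control libraries or Sox4cKO CD44plus replicate 2, and in Sox4cKO without any one library other than the Sox4cKO CD44minus libraries, with edgeR adjusted p up to 0.423 and 0.454, while it stayed between 5.89 and 8.27 on the log2 scale. The 4 Sox4cKO libraries alone gave an edgeR adjusted p of 0.121.

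Atoh1, which Hes1 represses, had 32.7 and 22.8 CPM in Sox4cKO CD44plus against 26 and 34.9 CPM in control CD44plus, a log2 fold change of -0.13 (SE 0.54). Gfi1, which acts after Atoh1, had 33.4 and 48.3 CPM in Sox4cKO CD44plus against 18.6 and 33.4 CPM in control CD44plus (0.66, SE 0.54). Neurog3, the enteroendocrine factor, had 9.40 and 12.5 CPM in Sox4cKO CD44plus against 11.8 and 11.1 CPM in control CD44plus (-0.07, SE 1.08). The genotypes overlapped for Atoh1 and Neurog3, and for Gfi1 the lower Sox4cKO value and the higher control value were both 33.4 CPM. None of the 3 genes passed the edgeR test of all 8 libraries between gates or between genotypes. Gfi1 in Sox4cKO, at a log2 fold change of 1.91 between gates (edgeR adjusted p 0.0861), passed with the animal as a block (0.0430), with background subtracted (0.0352) and without Rn45s (0.0406), and each of the 3 genes was called between gates in Sox4cKO on leaving out one of the Sox4cKO CD44minus libraries. In a fit of the 4 control libraries alone, Atoh1 (edgeR adjusted p 0.0418) and Gfi1 (0.0217) passed between gates. That fit called 9877 of the 18006 genes tested.

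The genes whose log2 CPM tracked a member most closely over the 8 libraries are given as a description, since the libraries share gates, animals and background. For Notch1 they included Soat1 (Pearson r 0.998) and Plch2, and for Notch3 Pla2g4e (0.997), Gm17644 and C1rl. For Dll1 they were Zkscan1 (0.996), Fbxo7 and Fnta, and for Dll4 Nfib (0.990), Mbtd1 and Mir27b. For Hes1 they included Med14 (0.998) and Cstf1.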

How the data were processed

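Libraries came from total RNA and a stranded low-input kit, per the labels' protocols. Tools named by the submitters' processing notes are HTSeq 0.6.1p1, STAR 2.2.5b, Trimmomatic 0.36 and bcl2fastq 2.17.4, with mm10 as the build. The authors deposited a table of raw counts for each library, by gene symbol. Members and lists were chosen with earlier results of these data known.

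Counts were fitted in R 4.3.3 with edgeR 4.0.16 (quasi-likelihood test, limma 3.58.1): 4 group means over all 8 libraries, filterByExpr with a minimum count of 10, TMM scaling, and Benjamini-Hochberg adjustment over 20427 genes at a threshold of 0.05. The 5 comparisons were CD44plus against CD44minus in each genotype, Sox4cKO against control in each gate, and their interaction. DESeq2 1.42.0 was an alternative. The fit was tested on simulated counts with 200 changed genes, whose spread was set alike in all libraries. In the data the biological coefficient of variation was 0.335 in CD44plus and 0.76 in CD44minus. The simulation therefore does not show how the fit performs at such unequal spreads. A count of 0 allows up to 3 reads, 0.227 to 3.39 CPM by library. Poisson and binomial intervals cover counting error only, and intervals of log2 fold changes come from the edgeR standard errors.

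The animal number in the table names is the same for both gates of an animal, so the numbers pair gates within a genotype. Deviations from group means correlated between paired gates at 0.526 in Sox4cKO and 0.103 in control. Control and Sox4cKO libraries of one number share only the number. Exon lengths and gene positions came from GENCODE transcripts of GRCm38 paired with RefSeq records; 21732 of 23366 symbols matched directly, 1272 by a synonym and 362 not at all. Named genes are all members, wider pathway genes that passed the test, and Atoh1, Neurog3, Gfi1 and Olfm4. Of the genes most like Notch1, Notch3, Dll1, Dll4 or Hes1 over the libraries, some are not reported here.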

Additional observations from a re-analysis of the deposited data

How the results depend on the processing

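Of 1078 log2 fold changes of named genes recomputed under an alternative, 867 kept their direction and their side of the threshold, 90 kept their direction and gained a call, 39 kept it and lost a call, and 82 changed sign. The members called between gates, 1 in Sox4cKO and 2 in control as reported, numbered 2 in Sox4cKO with DESeq2's size factors, with no filter on low counts and with the animal as a replicate block, where control had 2, 3 and 3. They numbered 3 in Sox4cKO and 4 in control with DESeq2 and with library totals in place of TMM, 3 and 3 without Rn45s, 4 and 5 with receptor gene background subtracted, 4 and 6 without both CD44minus replicate 1 libraries, and 0 and 7 in fits of the 4 libraries compared. All-gene calls between gates rose too in each of these settings, as given below, except in the fit of the 4 Sox4cKO libraries. Genes tested numbered 20427 with library totals, the animal block and DESeq2's size factors, and 20423 without Rn45s. They numbered 22694 with no filter and 19133 with background subtracted. DESeq2 tested 15226 in Sox4cKO and 16104 in control, and the fits of 4 libraries 16814 and 18006. The use of library totals and the omission of both replicate 1 libraries were chosen after seeing the data. Leaving out each library in turn gave 0 to 8 members in Sox4cKO and 0 to 7 in control, 0 to 0 between genotypes in CD44plus, 0 to 3 in CD44minus and 0 to 1 in the interaction. Omitting both CD44minus replicate 1 libraries leaves a single library in each CD44minus group. Between genotypes in CD44minus, the log2 fold changes were then 1.83 for Hes1, 1.25 for Dll1 and -2.35 for Jag2. These members were called in that fit, as were many other genes. Apart from these fits, no alternative called a member between genotypes, the replicate number as a block included. That block pairs libraries that share only a number and called 1 gene in CD44plus and 0 in CD44minus. The causes were not tested.

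All-gene calls between gates, 529 in Sox4cKO and 502 in control, became 1781 and 2224 with DESeq2, 884 and 994 with no filter, 1018 and 1065 without Rn45s, 1623 and 1740 with background subtracted, 2039 and 2091 with library totals, 1712 and 3659 with the animal block, 4681 and 4802 without both replicate 1 libraries, 0 and 9877 in fits of 4 libraries, and 11 to 8440 and 0 to 7362 on leaving out a library. Between genotypes the 0 calls became up to 24 in CD44plus and 7613 in CD44minus on leaving out a library, and 10 and 4766 without both replicate 1 libraries. The 0 interaction calls became 254 without Sox4cKO CD44minus replicate 1. The median of all genes between gates moved with library totals to -0.72 in Sox4cKO and -0.77 in control, where the members' medians were 0.98 and 0.98, and with DESeq2's size factors to -0.72 and -0.52, with members at 0.77 and 1.20.

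Signs changed as follows, on the log2 scale. Between genotypes in CD44minus, library totals gave Notch1 -0.55, Notch3 0.097, Dll4 -0.32, Jag1 -0.25, Lfng -0.53 and Rbpj -0.41, background subtraction gave Notch1 -0.43, Notch3 0.18, Dll4 -0.20, Jag1 -0.11, Lfng -0.29 and Rbpj -0.32, and the 4 libraries alone gave Notch1 -0.35, Dll4 -0.15, Jag1 -0.089, Lfng -0.26 and Rbpj -0.26. There also, leaving out Rn45s gave Notch1 -0.24, Dll4 -0.033, Lfng -0.072 and Rbpj -0.15, DESeq2 gave Notch1 -0.097, Notch3 0.014 and Rbpj -0.0078, its size factors in edgeR gave Notch1 -0.10, Notch3 0.014 and Rbpj -0.0083, no filter gave Notch2 0.0044, and leaving out both replicate 1 libraries gave Notch2 0.80. Between gates in Sox4cKO, library totals gave Jag2 -0.063, background subtraction Jag1 0.11, leaving out Rn45s Jag1 0.072, and leaving out both replicate 1 libraries Notch3 0.049 and Dll1 -0.19. Between gates in control, library totals gave Jag1 -0.22 and leaving out both replicate 1 libraries gave Jag2 0.33. In the interaction, library totals gave Notch1 0.16 and Lfng 0.35, background subtraction Notch1 0.12 and Lfng 0.19, the animal block Notch3 0.12, and leaving out both replicate 1 libraries Notch2 -0.55 and Notch3 1.26.

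Leaving out 1 library gave ranges that cross 0 for these values. Between gates in Sox4cKO they were Notch3 -2.71 to 0.056, Dll1 -0.18 to 1.57, Jag1 -0.48 to 0.35 and Jag2 -0.048 to 2.90, and in control Jag2 -0.50 to 0.35. Between genotypes in CD44plus they were Notch2 -0.24 to 0.51, Notch3 -0.99 to 0.092, Hes1 -0.25 to 0.0099 and Lfng -0.50 to 0.17. Between genotypes in CD44minus they were Notch1 -0.41 to 0.35, Notch2 -0.51 to 0.70, Notch3 -1.98 to 0.81, Dll1 -0.26 to 1.47, Dll4 -0.41 to 0.66, Jag1 -0.19 to 0.62, Jag2 -2.80 to 0.18, Hes1 -0.59 to 2.08, Lfng -0.66 to 0.73 and Rbpj -0.25 to 0.36. In the interaction they were Notch1 -0.64 to 0.12, Notch2 -0.45 to 0.77, Notch3 -1.21 to 1.58, Hes1 -2.15 to 0.53, Lfng -0.78 to 0.61 and Rbpj -0.020 to 0.90. None of the values that changed sign had passed the test as reported.

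With 2 libraries in each group and a biological coefficient of variation of 0.76 in CD44minus, intervals in that gate are wide, and its shallowest library holds 886194 gene counts. A comparison with 1 library left in a group assumes that it varies like the others.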
